A study of Mus musculus with 24 samples.

Results

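The EGR and NR4A genes were examined as targets of MYT1L, a zinc finger transcription factor of neurons. The members were the 4 EGR genes Egr1, Egr2, Egr3 and Egr4 and the 3 NR4A genes Nr4a1, Nr4a2 and Nr4a3, 7 of 21938 protein-coding genes. A locus was defined as the gene body with 20 kb on each side, and every listed MYT1L site that fell in a locus was taken, 56 sites over 4 lists. The assay was CUT&RUN. It tethers a nuclease through an antibody to chromatin that holds the protein, and the DNA cut loose is sequenced. The 4 lists stand for wild-type (WT) animals of embryonic day E18.5, at birth (P0) and as adults of 3 months, and for adult heterozygotes (HET). By the study's methods, HET mice carry 1 copy of a CRISPR-induced frameshift in the first coding exon of Myt1l. The labels give the strain as C57BL/6J, whereas the methods describe a mutant line made and bred on C57BL/6N. Every group had 3 MYT1L libraries and 3 libraries with control IgG, 24 in all. The labels name cortex at E18.5 and prefrontal cortex in the other groups, whereas the methods name prefrontal cortex throughout.

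EGR proteins are zinc finger factors that bind GC-rich DNA, and NR4A proteins are orphan nuclear receptors that bind as monomers or with partners such as the retinoid X receptors. Neurons switch both families on within minutes of synaptic activity, without new protein synthesis, through calcium and MAP kinase signals. These signals reach CREB, which binds cAMP response elements with the core TGACGT, and the serum response factor SRF with its ELK partners, which bind the CArG box. The induced proteins then regulate later genes of plasticity and survival. MYT1L recognises the core AAAGTT and is best known for repressing non-neuronal genes.

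Each list gives a start and an end per site, with no height, score or p-value, and is merged over the libraries of its group. No value below therefore has a replicate error, no difference between lists was tested, and sequencing depth was unknown. A gene without a listed site was not shown to be free of MYT1L. The E18.5 and P0 libraries came from sequencing run 1 and both adult groups from run 2, so between P0 and adult mice age cannot be told apart from sequencing run. The lists also differed in size and site width, from 14477 sites with a median of 593 bp at E18.5 to 40698 of 276 bp at P0, 32145 of 167 bp in adult WT and 56937 of 108 bp in adult HET.

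The sequences below are those of the sites on which the results turn, from the RefSeq sequence of GRCm38.p6 (mm10), each cut to a stretch outside annotated exons. The Nr4a3 upstream site was the site of that locus found in all 4 lists, and its first 77 bases are common to them. The Nr4a3 intron stretch, from an E18.5 site, held 3 copies of the MYT1L core. The Nr4a2 intron stretch was listed at E18.5 and P0, and the Nr4a1 upstream stretch at E18.5, P0 and in adult WT. The Egr2 promoter stretch was listed at P0 only. Capitals mark matches on either strand, AAAGTT (also read as AACTTT) in Nr4a3 and Nr4a2, GTGGGC in Nr4a2, TGACGT in Nr4a1, and TTGGCA (read as TGCCAA) with a CArG box in Egr2.
Nr4a3 upstream site, chr4:48043529-48043828, plus strand: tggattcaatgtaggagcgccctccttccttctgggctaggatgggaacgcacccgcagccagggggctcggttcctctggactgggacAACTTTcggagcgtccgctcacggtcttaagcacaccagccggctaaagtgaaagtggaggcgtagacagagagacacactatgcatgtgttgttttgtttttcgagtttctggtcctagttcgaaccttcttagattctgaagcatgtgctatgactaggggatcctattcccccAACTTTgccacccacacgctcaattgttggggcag
Nr4a3 intron site, chr4:48045717-48046016, plus strand: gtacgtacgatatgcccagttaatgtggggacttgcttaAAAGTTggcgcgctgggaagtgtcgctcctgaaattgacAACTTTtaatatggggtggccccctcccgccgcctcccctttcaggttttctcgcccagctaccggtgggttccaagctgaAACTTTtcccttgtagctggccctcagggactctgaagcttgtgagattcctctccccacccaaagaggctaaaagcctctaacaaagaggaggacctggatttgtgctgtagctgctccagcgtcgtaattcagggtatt
Nr4a2 intron site, chr2:57114409-57114644, minus strand: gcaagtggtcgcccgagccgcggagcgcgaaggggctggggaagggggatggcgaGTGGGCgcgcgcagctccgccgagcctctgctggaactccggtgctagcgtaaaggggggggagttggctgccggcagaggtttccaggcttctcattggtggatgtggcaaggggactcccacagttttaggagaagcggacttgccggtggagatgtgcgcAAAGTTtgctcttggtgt
Nr4a1 upstream site, chr15:101246345-101246529, plus strand: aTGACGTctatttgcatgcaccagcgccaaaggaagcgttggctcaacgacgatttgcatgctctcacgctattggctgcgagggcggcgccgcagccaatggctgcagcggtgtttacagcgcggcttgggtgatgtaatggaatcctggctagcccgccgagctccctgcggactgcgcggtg
Egr2 promoter site, chr10:67537291-67537565, plus strand: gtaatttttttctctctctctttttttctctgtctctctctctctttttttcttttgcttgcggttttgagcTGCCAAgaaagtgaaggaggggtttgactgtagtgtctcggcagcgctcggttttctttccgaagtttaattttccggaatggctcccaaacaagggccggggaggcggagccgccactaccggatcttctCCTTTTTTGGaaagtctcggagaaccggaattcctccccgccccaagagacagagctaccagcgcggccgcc

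A gene was counted as a target where a site lay within 5 kb of one of its transcription starts. By this rule 4 of the 7 genes were E18.5 targets, 5 were P0 targets, 3 were adult WT targets and 3 were adult HET targets. The same rule called 30.0% of all protein-coding genes for E18.5, 45.9% for P0, 20.1% for adult WT and 23.4% for adult HET. All 7 genes have CpG-rich promoters, a class of 9563 genes that was called more often, at 48.0%, 70.5%, 27.1% and 26.0% in the same order. Against that class the 5 of 7 at P0 (71.4%) lay at the background. The 4 of 7 at E18.5 (57.1%) and the 3 of 7 in each adult list (42.9%) lay above it by about 1 gene, too few to read a difference from. Over the wider loci, 6, 7, 5 and 5 of the 7 genes held a site, beside 49.0%, 69.1%, 54.1% and 68.9% of all genes.

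Egr1 and Nr4a3 were targets in all 4 lists, as were 4.75% of all genes. Egr3 was a target in the 3 WT lists and Nr4a2 at E18.5 and P0. Egr2 was a target at P0 alone and Nr4a1 in adult HET alone. Egr4 was a target in no list, as were 39.2% of all genes. The number of lists in which a gene was a target thus took every value from 0 to 4 among the 7 genes. These shares, and the shares of genes with fewer bp or lower coverage given below, are over all protein-coding genes. They were not computed for CpG-rich promoters alone.

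**Figure D1:**
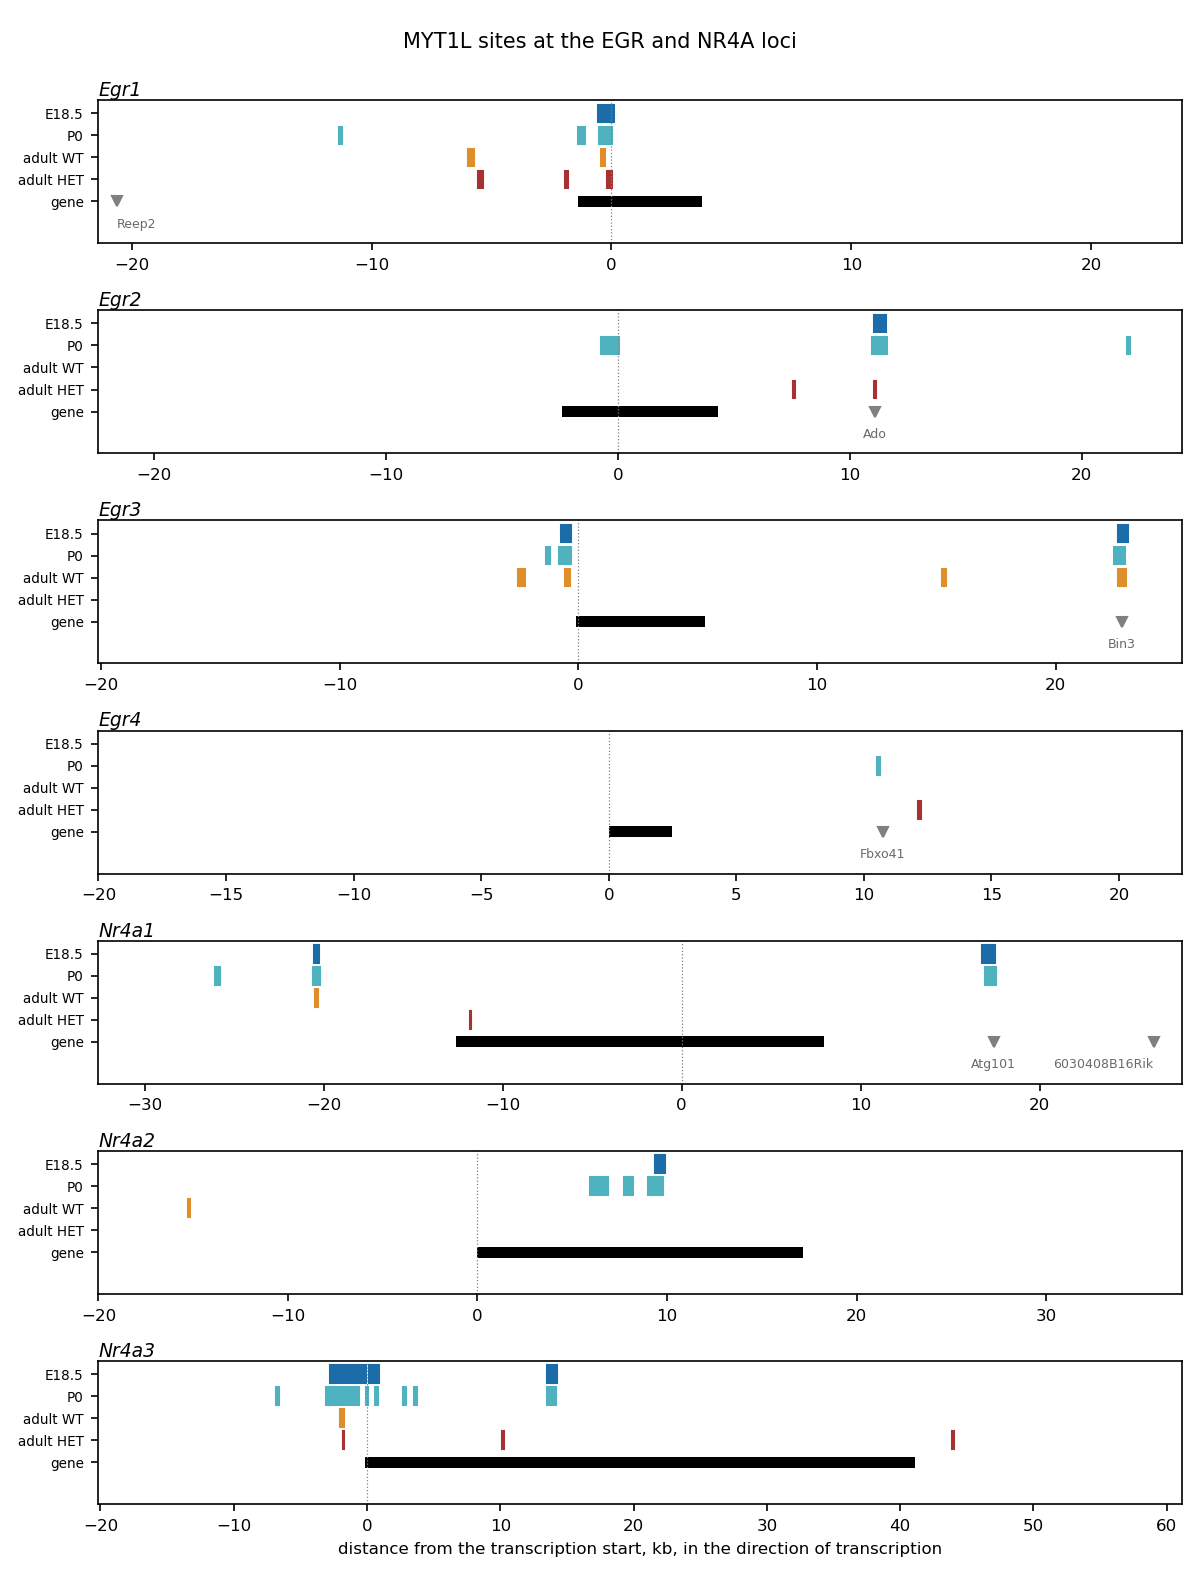
MYT1L sites at the 7 loci, with distance from a curated RefSeq transcription start in kb on the x axis, in the direction of transcription. The start used was the 5′-most curated one within 200 bp of the start of a GENCODE basic transcript. Each site list has a row above the gene body (black). Grey triangles mark starts of neighbouring genes, and the 4 rows are filled near the start of Egr1 and just upstream of Nr4a3. The 5′-most curated starts of Egr4, Nr4a1 and Nr4a2 are bare.

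Nr4a3 (also Nor1), an NR4A receptor encoded on chromosome 4 at 48045153-48086447, plus strand, had the most listed DNA of the 7. Its locus held 3 sites of 4108 bp in all at E18.5, 10 sites of 3830 bp at P0, 1 site of 324 bp in adult WT and 3 sites of 368 bp in adult HET. The younger lists thus covered over 10 times as many bp as the adult ones. Within 5 kb of the start there were 3400, 3128, 324 and 79 bp in the order E18.5, P0, adult WT and adult HET. At E18.5 and P0, 99.8% and 99.6% of protein-coding genes had fewer bp than Nr4a3 there, and in the adult lists 94.0% and 79.7%. The E18.5 list held 1 site of 2672 bp (chr4:48042537-48045208), and 99.6% of the sites of that list were narrower. It ran from far upstream past the annotated gene start at 48045153 and ended short of the curated RefSeq start at 48045305. At P0 much of that stretch was listed as sites of 673 and 1492 bp (chr4:48042447-48043119 and chr4:48043224-48044715), and the wider exceeded 99.4% of its list. The end of that stretch was not listed at P0, but a further P0 site of 149 bp (chr4:48045217-48045365) spanned the curated start. The adult WT site (chr4:48043282-48043605) and the 79 bp adult HET site (chr4:48043529-48043607) both lay inside the 1492 bp P0 site, centred 1.86 and 1.74 kb upstream of the curated start. The stretch common to all 4 lists was chr4:48043529-48043605. The other adult HET sites, in an intron 10.21 kb past the start and 43.96 kb past it in intergenic DNA, were in no other list.

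Nr4a2 (Nurr1), required for midbrain dopaminergic neurons, lies on chromosome 2 at 57106830-57124003, minus strand, and has 2 curated start sites. All of its E18.5 and P0 sites lay within the gene around the downstream start, not at the 5′-most one. The E18.5 list held 1 site of 522 bp (chr2:57114123-57114644), 654 bp past the downstream start and annotated as intron. P0 held 4 sites of 425 to 806 bp, 2202 bp in all, with midpoints from 421 bp past that start to 2841 bp before it. At P0, 98.9% of genes had fewer bp within 5 kb. Adult WT had a single 129 bp site 15.23 kb upstream of the 5′-most start, in an intron of the neighbouring transcript BB557941, and adult HET had none in the whole locus.

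Nr4a1 (Nur77) lies on chromosome 15 at 101254269-101274795, plus strand. No list held a site within 10 kb of its curated RefSeq start. The locus instead carried a distal element centred 20.41 kb upstream of that start and 7.84 kb upstream of the longest annotated transcript at E18.5, with sites of 295 bp at E18.5, 400 bp at P0 and 185 bp in adult WT. The adult WT site (chr15:101246345-101246529) lay wholly within the other 2. Adult HET did not list it and held 1 site of 76 bp, in the long first intron, on which the call of Nr4a1 as a target in that list rested. In that list 14.0% of sites were narrower still.

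**Figure D2:**
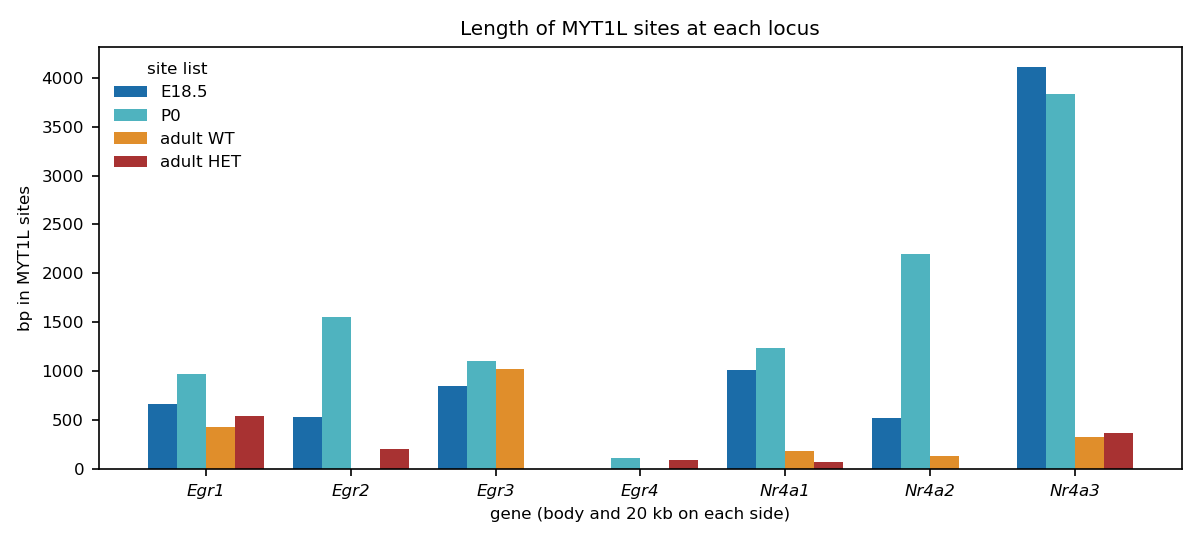
Length of DNA in MYT1L sites (bp, y axis) over each gene body with 20 kb on each side, by site list. Nr4a3 has the tallest bars at E18.5 (4108 bp) and P0 (3830 bp), and no bar of either adult list reaches above the 1022 bp of Egr3 in adult WT.

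Egr1, the most studied activity-induced EGR factor, lies on chromosome 18 at 34859823-34864984, plus strand. Its promoter carried a site in every list, of 666 bp at E18.5, 542 bp at P0, 183 bp in adult WT and 209 bp in adult HET. The E18.5 site (chr18:34860647-34861312) spanned the curated start at 34861207, and the P0 site lay within it. The adult WT site (chr18:34860754-34860936) and the adult HET site (chr18:34861015-34861223) both lay inside the E18.5 and P0 sites but did not overlap each other. The adult WT midpoint was 0.36 kb upstream of the start and the adult HET midpoint 0.09 kb upstream. Further adult sites lay 5.84 kb upstream in WT and 5.46 and 1.88 kb upstream in HET, again without overlap, and further P0 sites 11.3 and 1.25 kb upstream. Egr1 had 546 bp in sites within 5 kb in adult HET, more than 99.8% of genes, and 435 bp in adult WT, more than 96.7%.

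Egr3, which shares many targets with Egr1, lies on chromosome 14 at 70077203-70082614, plus strand. A promoter site was listed in all 3 WT groups, with 417 bp at E18.5, 504 bp at P0 and 235 bp in adult WT, and their common stretch (chr14:70076742-70076976) was the adult WT site itself. Adult WT added a site of 292 bp centred 2.37 kb upstream and 1 of 187 bp in intergenic DNA 15.33 kb downstream, and P0 added 1 of 152 bp centred 1.27 kb upstream. With 1022 bp in 4 sites, the Egr3 locus was covered more densely than that of 98.9% of genes in adult WT. These 4 include the 187 bp site and a site of 308 bp at the promoter of the neighbour Bin3. The start nearest to both was that of Bin3. Adult HET listed no site over the whole 45.4 kb locus.

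Egr2, also needed for hindbrain patterning and myelination by Schwann cells, lies on chromosome 10 at 67535475-67542188, plus strand. Distances here are from its start at 67537869, which lies downstream of the annotated gene start. The promoter site of Egr2 (chr10:67537149-67537919) was listed at P0 alone, at 771 bp, wider than 93.3% of that list. The sites shared between lists in this locus lay 11.1 to 11.3 kb downstream, at the promoter of Ado, a thiol dioxygenase gene, with 534 bp at E18.5, 642 bp at P0 and 111 bp in adult HET. Adult WT had no site in the locus.

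Egr4, on chromosome 6 at 85511121-85513589, minus strand, had the least listed DNA over the 4 lists. P0 gave a 111 bp site at the promoter of its neighbour Fbxo41, and adult HET a 90 bp site in an Fbxo41 intron. These lay 10.59 and 12.18 kb from the Egr4 start. E18.5 and adult WT had none.

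Neighbouring promoters took part of the sites of the other loci as well. The start nearest to a site was that of another gene for 3 of 10 sites at E18.5, 6 of 27 at P0, 2 of 9 in adult WT and 4 of 10 in adult HET. Besides Ado and Fbxo41, these included the sites at Bin3, 22.7 to 22.8 kb from Egr3, listed in the 3 WT groups at 433, 450 and 308 bp, and at the autophagy gene Atg101, 17 kb from Nr4a1, at 717 bp at E18.5 and 600 bp at P0. By position, 5, 8, 3 and 3 sites were at promoters of any gene, from 1 kb before to 100 bp past a start, in the order E18.5, P0, adult WT and adult HET. In the same order 3, 8, 1 and 3 were intronic and 2, 9, 5 and 3 intergenic, and the remaining 2 at P0 and 1 in adult HET overlapped untranslated exons at their midpoint.

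Sites took up 2.03% of the 379 kb of loci at E18.5, 2.91% of it at P0, 0.553% in adult WT mice and 0.34% in HET mice. Pooled over all protein-coding genes, the same shares were 0.685%, 0.896%, 0.303% and 0.252%. Without Nr4a3 the 6 other loci were covered at 1.2%, 2.42%, 0.595% and 0.31%, lower at E18.5 and P0 and in adult HET, higher in adult WT, and above the pooled share in each list. The pooled share counts each locus by its length, and neither locus length nor promoter class was adjusted for. The 3 NR4A loci were covered at 2.84% and 3.65% at E18.5 and P0, against 1.14% and 2.09% for the 4 EGR loci. In the adult lists the order was turned, with 0.321% and 0.223% for NR4A and 0.811% and 0.47% for EGR. Single loci held much of these bp. Nr4a3 gave 4108 of the 5642 NR4A bp at E18.5 and 3830 of 7271 at P0. Egr3 gave 1022 of the 1457 EGR bp in adult WT, partly in sites nearest to the Bin3 start. Egr1 gave 546 of 845 in adult HET. The families were not compared without these loci. The sites of these loci were about as wide as those of their lists at E18.5, with medians of 600 and 593 bp, and in adult HET, with 113.5 and 108 bp. They were wider at P0, with 318 against 276 bp, and in adult WT, with 235 against 167 bp, where 8 of 9 exceeded the list median.

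**Figure D3:**
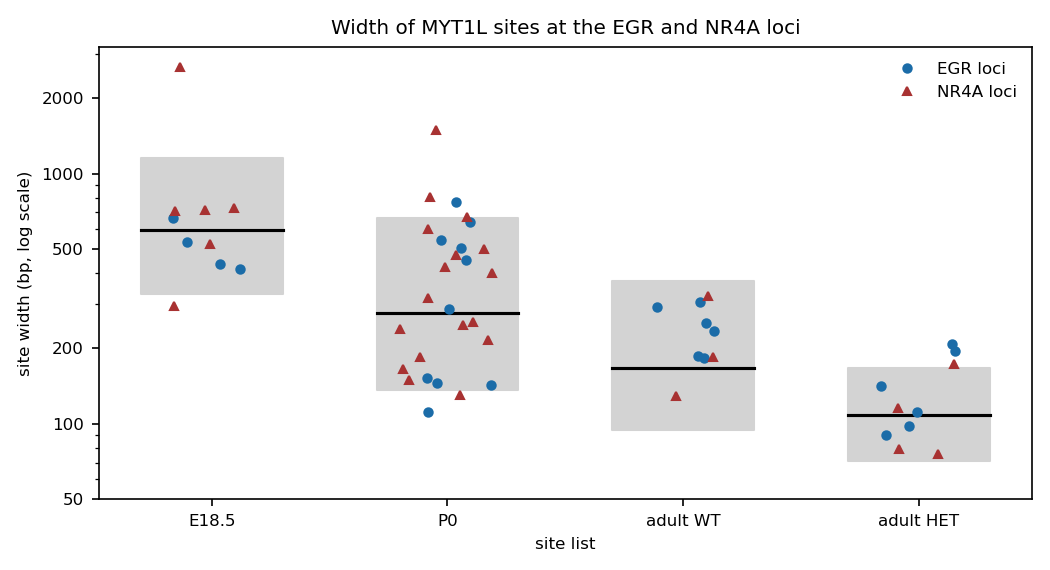
Width of each MYT1L site in the loci (bp, log scale) by site list, with circles for EGR and triangles for NR4A loci. The black line is the median of the whole list and the grey band runs from its 10th to its 90th percentile. The Nr4a3 site of 2672 bp at E18.5 stands above the rest, and points and bands fall together from E18.5 to adult HET.

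Sites of these loci recurred between lists. All 10 E18.5 sites overlapped a P0 site by at least 1 bp (exact 95% interval 69.2 to 100%), beside 88.3% of the whole list. Of the 9 adult WT sites, 5 overlapped a P0 site (55.6%, 21.2 to 86.3%), beside 10.4% of the list. These were the promoter sites of Egr1, Egr3 and Bin3, the distal Nr4a1 element and the upstream Nr4a3 site, and the same 5 overlapped an E18.5 site. Of the 10 adult HET sites, 3 overlapped a P0 site (30.0%, 6.67 to 65.2%), beside 3.42% of the list, at the promoters of Egr1 and Ado and upstream of Nr4a3. Adult WT and adult HET shared 1 pair of sites, at Nr4a3, which was 11.1% of the adult WT sites (0.281 to 48.2%) beside 8.38% of that list. Where sites up to 500 bp apart also counted, this was 3 of 9. The intervals cover counting error only, and sites of a locus are not independent. Position relative to promoters was not adjusted for.

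**Figure D4:**
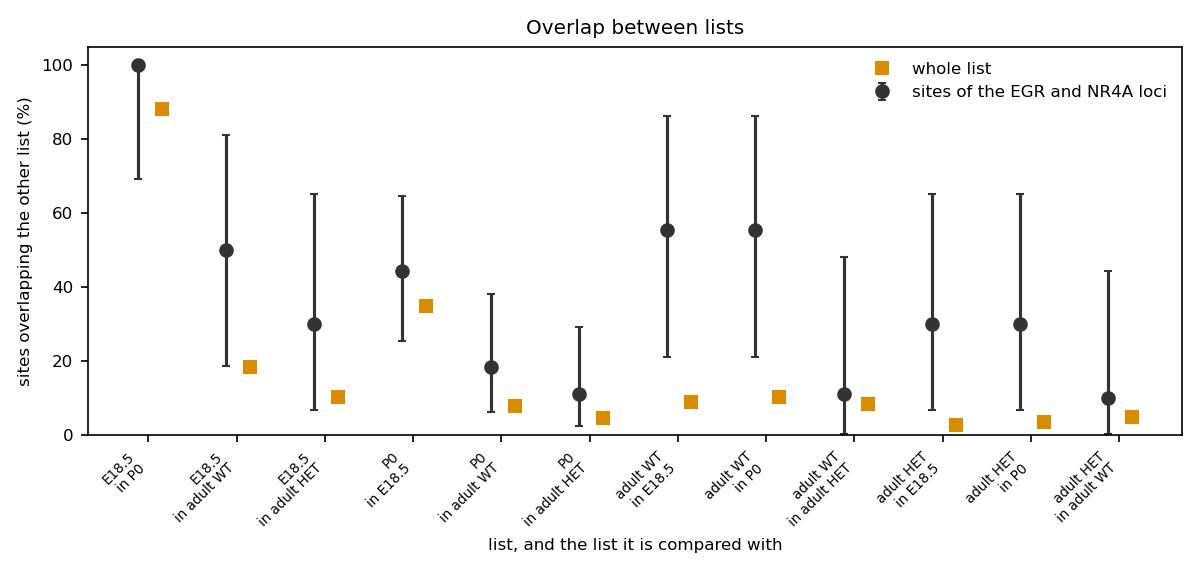
Percent of sites with an overlap of 1 bp or more in a second list (y axis), for each ordered pair of lists (x axis). Circles with exact 95% binomial intervals are the sites of the EGR and NR4A loci and squares are whole lists. Adult WT sites of the loci overlap P0 sites at 55.6%, beside 10.4% for the list, and overlap adult HET sites at 11.1%, beside 8.38%.

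Joined across lists, the 56 sites formed 36 regions. Of these, 26 (72.2%) came from 1 list, 4 (11.1%) from 2, 4 (11.1%) from 3 and 2 (5.56%) from all 4, beside 86.3%, 11.0%, 2.22% and 0.485% of 121674 regions genome-wide. The 2 regions of all 4 lists were the Egr1 promoter, by chaining, since its adult sites did not meet, and the upstream Nr4a3 site. The 15 regions of P0 alone made 41.7% of the regions here and 20.5% genome-wide. That share depends on how many sites each list gave, and P0 gave 27 of the 56 here. Of those 27 sites, 15 (55.6%) were in no other list. Genome-wide, 24969 regions of P0 alone came from a list of 40698 sites, so P0 sites here were not more often in P0 alone. No region was of E18.5 alone, and none was shared by the adult lists alone. Genome-wide these made only 1.0% and 1.62% of regions, so with 36 regions their absence is no departure from the background.

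Matches to binding motifs were counted within 75 bp of each site midpoint, on both strands. The MYT1L core AAAGTT was found at 2 of 10 sites at E18.5, 4 of 27 at P0, 0 of 9 in adult WT and 1 of 10 in adult HET. Over the whole lists the shares were 15.2%, 14.6%, 13.8% and 14.5%. The 0 of 9 in adult WT has an exact 95% upper limit of 33.6%, so no departure from the list was detectable with so few sites.

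Only some of the words were found in both families, and the counts that follow are given with no test. TGACGT had 7 matches in the EGR loci, of which 2 overlap in 1 element, and 7 in the NR4A loci, and GTGGGC and TTGGCA were also in both. TGACTC was found in the NR4A loci alone, with 1 match in Nr4a1, 2 in Nr4a2 and 3 in Nr4a3. Over whole sites of the 7 loci, TGACTC was in 2 of 10, 4 of 27, 0 of 9 and 1 of 10. The lists' shares were 26.8%, 14.5%, 12.8% and 6.12% in the order E18.5, P0, adult WT and adult HET. TGACGT was in 4 of 10, 7 of 27, 2 of 9 and 1 of 10, beside 13.6%, 6.55%, 2.23% and 0.873%. TTGGCA was in 2 of 10, 4 of 27, 1 of 9 and 0 of 10, beside 37.8%, 22.1%, 12.8% and 6.06%. Counted once over whole sites and windows, the NR4A loci held 12 AAAGTT matches, 9 of them in Nr4a3, 2 in Nr4a2 and 1 at the Atg101 promoter beside Nr4a1, and the EGR loci held none. The NR4A sites also covered more bp at E18.5 and P0, 5642 and 7271 bp against 2050 and 3748 bp for EGR. Searched over whole sites, 5 of 10, 8 of 27, 0 of 9 and 0 of 10 sites of the 7 loci held AAAGTT, beside 44.3%, 27.4%, 17.5% and 11.3% of the lists. CArG boxes lay the other way, with 5 in Egr1, 2 in Egr2 and 2 in Egr3 and none in the NR4A loci. CArG boxes are rare, and 0.767%, 0.727%, 0.977% and 0.866% of whole-list windows held one in the order E18.5, P0, adult WT and adult HET. Among the sites of these loci 1 of 10, 1 of 27, 3 of 9 and 1 of 10 held one in the same window.

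At the Egr1 promoter the 5 CArG boxes were centred 403, 365, 349, 101 and 79 bp upstream of the start, and 2 TGACGT cores 134 and 65 bp upstream. The E18.5 and P0 sites held all 7 of these matches. The adult WT site held the 3 distal CArG boxes, and the adult HET site held the 2 proximal boxes and both TGACGT cores. The Egr3 promoter site held 2 TGACGT cores and 1 CArG box in each of the 3 WT lists. The Egr2 site at P0 held 2 CArG boxes, 371 and 68 bp upstream of the start, and 1 TGACGT, of which the distal box is in capitals in the stretch printed above. The distal Nr4a1 element held 2 TGACGT cores in its E18.5 and P0 sites and 1 in the shorter adult WT site, where it stands at the beginning of the printed sequence. Upstream of Nr4a3, the wide E18.5 site held 4 TGACGT cores, 3 of them within 229 bp of the start, and 2 AAAGTT cores at 1685 and 1509 bp upstream. Both AAAGTT cores lay past the end of the adult sites, as the printed sequence shows. The NR4A response element AAAGGTCA was found in no site of the 7 loci and in at most 0.978% of the windows of any list, and the EGR core GTGGGC in 1 of 10, 4 of 27, 1 of 9 and 0 of 10 windows, beside 7.96%, 6.68%, 7.71% and 4.15% of the lists. A match is a run of letters and not a shown binding site.

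Genes around these families were counted by the same 5 kb rule. Of 20 upstream regulators (CREB and SRF factors, their coactivators and kinases), 12, 16, 12 and 13 were targets at E18.5, P0, adult WT and adult HET, and 18 of the 20 have CpG-rich promoters. Crem, a CREB family factor, Crtc2, a CREB coactivator, and Elk3, an SRF partner, were among the targets in all 4 lists. Crem had 2148, 1837, 470 and 266 bp in sites. The CREB kinase gene Camk4 was the single member in no list. Of 5 partners, the corepressors Nab1 and Nab2 and the retinoid X receptors, 1, 2, 0 and 0 were targets. Nab2, Rxra and Rxrg were in no list.

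Of the 7 FOS and JUN genes, 5, 7, 3 and 3 were targets, and Junb alone was one in all 4 lists, with 268, 761, 127 and 144 bp. Of 15 other immediate early genes, 9, 13, 9 and 9 were targets. Those in all 4 lists were Bdnf, the neurotrophin gene, with 1079, 1008, 391 and 241 bp, Dusp6, a dual-specificity phosphatase gene, with 1572, 357, 497 and 130 bp, Homer1, a postsynaptic scaffold gene, with 1540, 2653, 1349 and 96 bp, and the clock gene Per1, with 1300, 146, 668 and 513 bp. Atf3, a stress-induced factor, was in none. All 7 FOS and JUN genes, 13 of the 15 other immediate early genes and 4 of the 5 partners have CpG-rich promoters. Of all genes of that class 48.0%, 70.5%, 27.1% and 26.0% were targets at E18.5, P0, adult WT and adult HET. The EGR and NR4A genes, all 4 other gene lists and all protein-coding genes had more targets at P0 than in either adult list, and differences between gene lists were not tested. Median bp within 5 kb were 417, 771, 0 and 0 for the EGR and NR4A genes and 0 in every list over all genes.

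**Figure D5:**
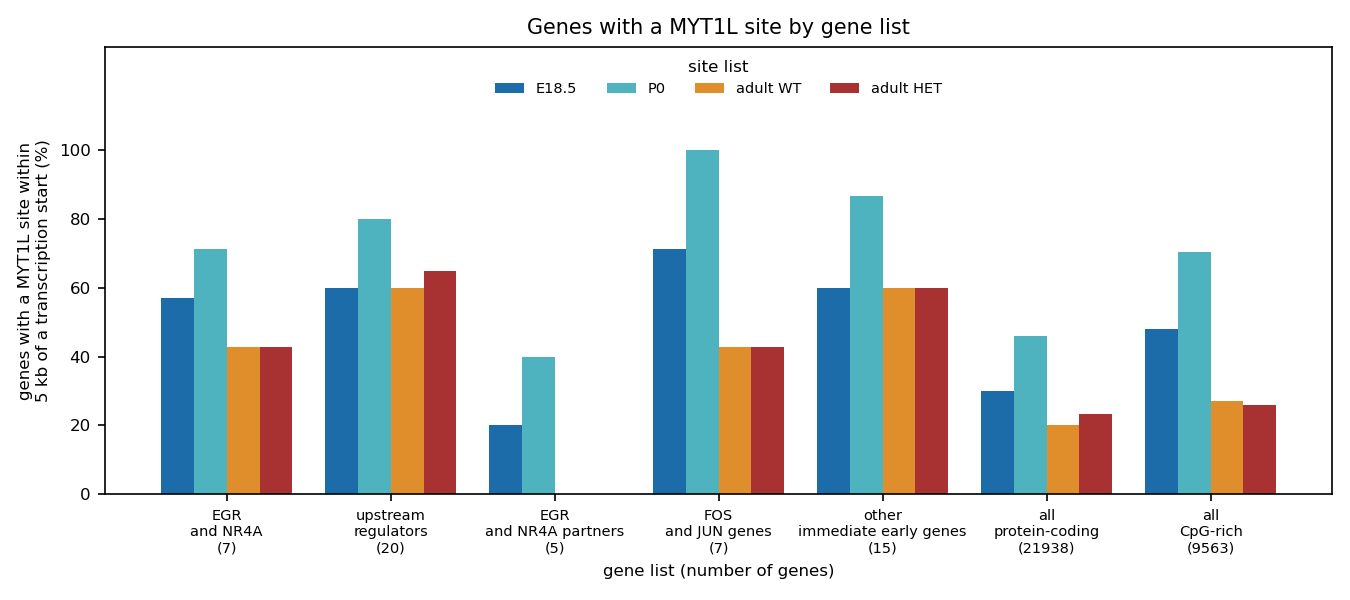
Percent of genes with a MYT1L site within 5 kb of a transcription start (y axis) in each gene list, with the number of genes in brackets, and one bar per site list. P0 has the tallest bar in every group, from 2 of 5 partners to all 7 FOS and JUN genes, and all CpG-rich genes stand at 70.5%.

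The genes most like Nr4a3 in their listed bp within 5 kb, by Euclidean distance over log10(bp + 1) in the 4 lists, were Rtp4 (0.148), Gm43517 (0.156), Adamts1 (0.168), Tle1 (0.175) and Bola1 (0.214). Rtp4 had 3183, 2268, 321 and 72 bp at E18.5, P0, adult WT and adult HET, and Tle1, a corepressor gene, had 3028, 2976, 473 and 74 bp. The likeness is over 4 values and is a description.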

How the data were processed

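Cortex of WT mice at E18.5, P0 and 3 months and of adult HET mice was profiled by CUT&RUN. The authors ran the nf-core/cutandrun pipeline on mm10, and its aligner, peak caller and threshold were not given in the sources used here. They deposited 1 list of merged sites per MYT1L group, in which the unit is a position (start and end in bp), with no count, score or depth. Merging hides support among libraries and deeper libraries can give more sites, which limits comparisons between lists. The 12 IgG libraries are not analysed here. Some adult titles read Myt2l or Myt3l and were taken as MYT1L from their descriptions.

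Sites on 21 chromosomes were used as deposited and numbered from 1. Genes and starts were those of GENCODE basic transcripts, and sequence and curated starts those of RefSeq GRCm38.p6, the assembly of mm10. The curated start used for a gene was the 5′-most one within 200 bp of a GENCODE basic start. CpG-rich meant an observed to expected CpG ratio of at least 0.6 and GC of at least 55% within 500 bp of a start. Overlap needed 1 bp, and intervals were exact (Clopper-Pearson, 95%). The 7 motifs were AAAGTT for MYT1L, TGACGT for CREB, GTGGGC for EGR, TTGGCA for NFI, TGACTC for AP-1, AAAGGTCA for NR4A and the CArG box for SRF. A TGACGT core whose element reads the same on both strands counts as 2 overlapping matches. Python 3.11.15, numpy 2.4.6, pandas 2.3.3, scipy 1.17.1, pysam 0.24.0 and matplotlib 3.10.9 were used, and the counting code was tested on simulated data. All 47 listed genes were matched.

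The members and gene lists were chosen with earlier results of these data known. Named genes were the 7 members, listed genes that were targets in all 4 lists or in none, genes next to a site, and the 5 genes most like Nr4a3. A gene that this rule would name is not reported here. Alternatives varied the distance, reach, site width, gene assignment, overlap rule and motif window, and starts of all transcripts were tried after the data were seen.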

Additional observations from a re-analysis of the deposited data

How the results depend on the processing

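Of 48 alternative values, 40 were classed as unchanged, counts within 1.5 times the main count and shares within its exact 95% interval, which is wide here, and 8 were not. With only sites wider than the median of their list, the genes with a site within 5 kb fell from 4 to 2 at E18.5 and from 3 to 1 in adult HET, and the sites in the loci from 10 to 5 at E18.5, from 27 to 15 at P0 and from 10 to 6 in adult HET. With only sites whose nearest start was that of a member, adult HET kept 6 of 10. The AAAGTT share at P0 was 37.0% instead of 14.8% in the widest window, and in adult HET 0% instead of 1 site of 10 over whole sites, since the match at Nr4a3 lay outside its 79 bp site. Among the shares within the interval, AAAGTT rose from 2 to 5 of 10 sites at E18.5 in both alternatives, from 1 to 3 of 10 in adult HET and from 0 to 1 of 9 in adult WT in the widest window, and adult WT sites overlapping adult HET rose from 1 to 3 of 9 with a gap of up to 500 bp. The order of lists changed too. With wider sites E18.5 fell below adult WT, with 2 against 3 genes and 5 against 8 sites, and adult HET fell below adult WT in sites, with 6 against 8, as it did with nearest starts, with 6 against 7. No paired analysis was possible because the lists were merged over libraries and carry no replicate numbers, and leaving out a library was not possible for the same reason. With 9 to 27 sites per list in the loci and unknown depth, only large differences in shares could be seen.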
